A study of Mus musculus with 4 samples.

Results

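Of 31060 genes counted in mouse hippocampus, 9 that carry calcium and cyclic AMP signals in neurons are described here. They are Camk2a, Camk2b, Camk4, Adcy1, Adcy8, Creb1, Nrgn, Ppp3ca and Ppp1r1b, found by an exact match of the gene symbol. All 9 passed the filter on low counts, which 17236 of the 31060 genes passed. The surgery group was wild-type C57BL/6 mice, labelled as 12 months old, whose hippocampus was taken on day 3 after exploratory laparotomy under sevoflurane. The control group was mice of the same strain and age without anesthesia or surgery, so the drug and the operation cannot be told apart. Each group had 2 libraries of bulk hippocampal RNA, called replicates 1 and 2. Whether the replicates came from separate animals is not given in the sources used here, so p-values cover only the spread among these 4 libraries, which may be technical. In bulk RNA, fewer cells of a type and less RNA per cell cannot be told apart.

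Calcium that enters a dendritic spine binds calmodulin, and the loaded calmodulin activates the kinases of the CaMKII and CaMKIV families, the cyclases encoded by Adcy1 and Adcy8, and the phosphatase calcineurin. Cyclic AMP from the cyclases activates protein kinase A, and both this kinase and CaMKIV phosphorylate CREB, the transcription factor that drives gene expression during long-term memory. Calcineurin and protein phosphatase 1 reverse such phosphorylation, the protein encoded by Ppp1r1b inhibits protein phosphatase 1, and neurogranin, encoded by Nrgn, holds calmodulin in its calcium-free form.

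Coding stretches of 4 members are printed to show the sites through which these signals pass. They are from the transcripts of GENCODE vM21 on GRCm38, 5′ to 3′. The full coding sequence of Nrgn-201 has 78 codons on chromosome 9, and its capitals mark codons 33 to 43 of the IQ motif, which binds calmodulin and holds, at codon 36, the serine phosphorylated by protein kinase C. In the line for Ppp1r1b-201 on chromosome 11, codons 23 to 42 are shown, and the capitals mark codons 31 to 34, which end in the threonine phosphorylated by protein kinase A. The stretch of Creb1-201 on chromosome 1 spans codons 122 to 142, with codons 130 to 134 in capitals around serine 133, the residue whose phosphorylation recruits coactivators. That of Camk2b-202 on chromosome 11 spans codons 276 to 295, and its capitals mark codons 284 to 287, which end in the threonine whose autophosphorylation keeps the kinase active after calcium falls.
Nrgn-201: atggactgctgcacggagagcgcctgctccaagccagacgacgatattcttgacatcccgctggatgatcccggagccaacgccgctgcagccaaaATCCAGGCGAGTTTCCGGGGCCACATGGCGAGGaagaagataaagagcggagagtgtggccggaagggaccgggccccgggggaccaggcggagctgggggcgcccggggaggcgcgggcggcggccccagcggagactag
Ppp1r1b-201: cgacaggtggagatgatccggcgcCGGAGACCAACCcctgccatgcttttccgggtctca
Creb1-201: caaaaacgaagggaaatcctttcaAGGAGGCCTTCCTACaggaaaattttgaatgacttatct
Camk2b-202: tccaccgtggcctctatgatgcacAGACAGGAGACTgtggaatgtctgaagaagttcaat

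Per unit of transcript length, the 9 genes spanned a wide range of levels. Over the 4 libraries Nrgn averaged 630 FPKM (fragments scaled by transcript length and library size), from 437 to 759, and Camk2a averaged 529 FPKM, from 466 to 588, so that the ranges of these most abundant members overlapped. Ppp3ca followed at 199 FPKM, Camk2b at 136 FPKM and Adcy1 at 90.2 FPKM, each with a range apart from that of its neighbours. Ppp1r1b averaged 14.4 FPKM and Camk4 12.2 FPKM, with overlapping ranges, while Creb1 stood at 4.28 FPKM and Adcy8, the lowest, at 2.77 FPKM. The mean of Nrgn was 227 times that of Adcy8. The 9 genes took between 0.906% and 1% of the gene counts of a library, and these counts totalled 18002695 to 19318085 per library.

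Surgery against control was tested with edgeR's quasi-likelihood test on the deposited counts, adjusted over all 17236 tested genes. Adcy8 and Nrgn were lower in both surgery libraries than in both controls, although at an adjusted p under 0.05 0 of the 9 members passed, against 0% of all genes. DESeq2 gave an adjusted p to 7545 genes, of which 1.03% passed, and to 8 members, of which 0 passed, while Adcy8 received none (unadjusted p = 0.00500). At an unadjusted p under 0.05 Adcy8 and Nrgn were lower, 2 of 9 members, where 5.63% of all genes were lower, and 0 members were higher, where 4.33% were. Levels in CPM, counts scaled to library size with TMM factors, did not overlap between the groups for Adcy8 and Nrgn, lower in surgery as 22.3% of all genes were, and for Creb1, higher in surgery as 20.3% were. The other 6 members overlapped. Of the 9 log2 fold changes 5 were negative and 4 positive, with a median of -0.028 where that of all tested genes was 0.00053.

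**Figure D1:**
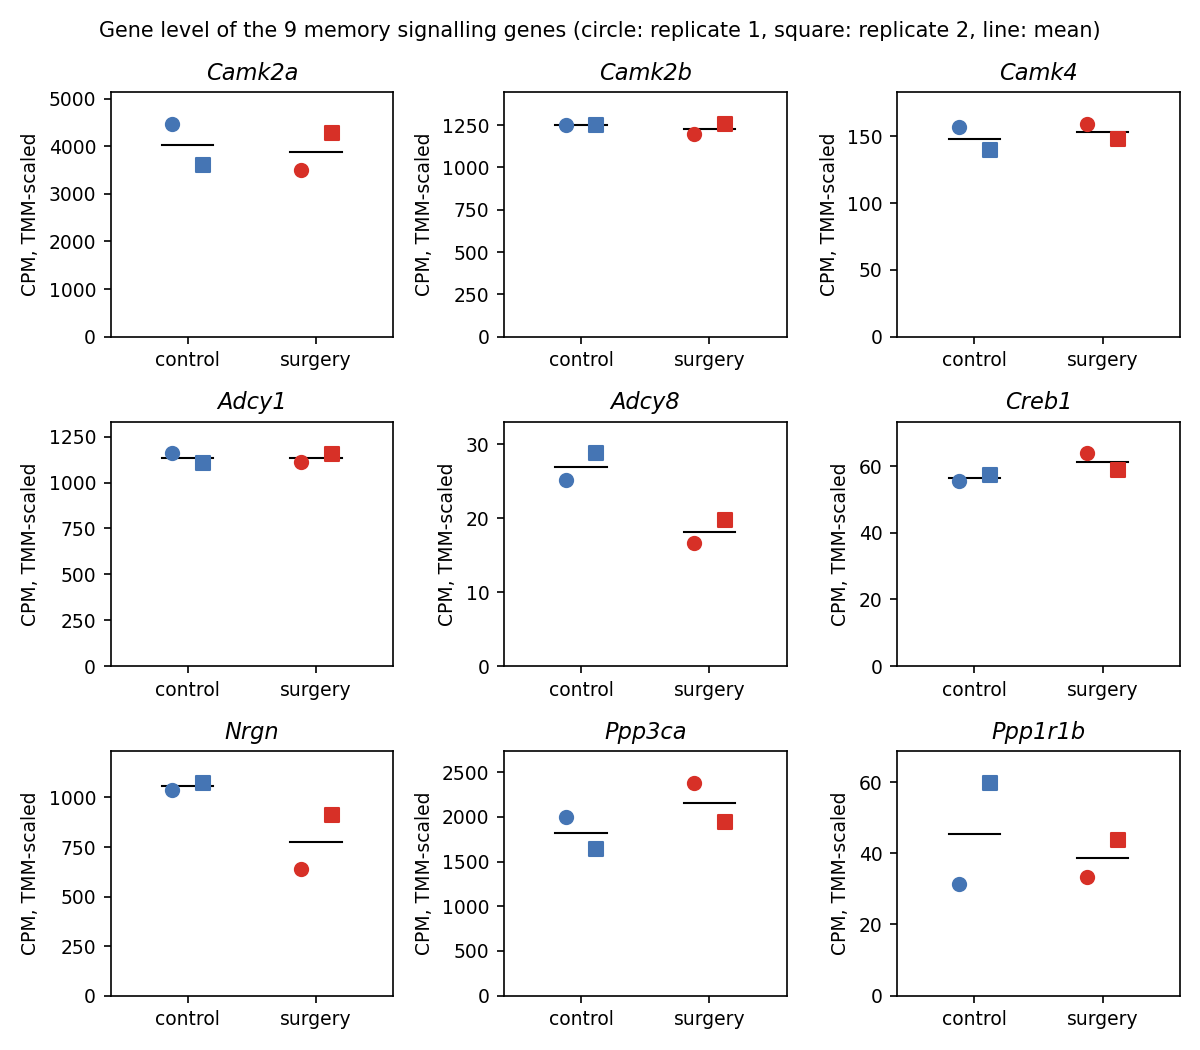
Gene level of each member in every library, in CPM scaled by TMM on axes that start at 0 (blue, control; red, surgery; circle, replicate 1; square, replicate 2; line, mean of 2 libraries). Adcy8 and Nrgn lie lower in both surgery libraries, Creb1 lies slightly higher, and the other 6 overlap.

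All 3 kinases overlapped between the groups. Camk2a (ENSMUSG00000024617, chromosome 18, 60925618 to 60988152 on mm10) encodes the alpha subunit of CaMKII, the main protein of the postsynaptic density. It stood at 4470 and 3605 CPM in control replicates 1 and 2 and at 3494 and 4277 CPM in surgery replicates 1 and 2, so that each group held a high and a low library. The log2 fold change was -0.055 (SE 0.22, 95% interval -0.54 to 0.43, edgeR adjusted p = 0.952), and its sign changed when control replicate 1 (0.11) or surgery replicate 1 (0.089) was left out. The beta subunit, which anchors the kinase to actin, is encoded by Camk2b (ENSMUSG00000057897, chromosome 11, 5969644 to 6066362). Its 4 values were 1251 and 1251 CPM in control and 1197 and 1258 CPM in surgery, a log2 fold change of -0.028 (SE 0.16, interval -0.38 to 0.32, edgeR adjusted p = 0.967). The sign turned with the GC offset (0.056) and without surgery replicate 1 (0.012), and counts summed over its transcripts gave -1.79 (edgeR unadjusted p = 0.0972). Camk4 (ENSMUSG00000038128, chromosome 18, 32939041 to 33195767) encodes CaMKIV, a nuclear kinase of CREB. It had 157 and 140 CPM in control and 159 and 148 CPM in surgery, a log2 fold change of 0.049 (SE 0.12, interval -0.21 to 0.31, edgeR adjusted p = 0.915). From counts summed over its transcripts it was 1.55 (edgeR unadjusted p = 0.0340, adjusted p = 0.855). An opposite-strand gene, 2310026I22Rik, covers 2.21% of the exon bases of Camk4, and whether counting used strand is not given in the sources used here.

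Of the 2 calmodulin-stimulated cyclases, Adcy8 was lower in both surgery libraries and Adcy1 overlapped between the groups. Adcy1 (ENSMUSG00000020431, chromosome 11, 7063489 to 7178506), the more abundant per length, was nearly level at 1158 and 1104 CPM in control and 1110 and 1156 CPM in surgery. Its log2 fold change was 0.0019 (SE 0.16, interval -0.34 to 0.35, edgeR adjusted p = 0.999). Adcy8 (ENSMUSG00000022376, chromosome 15, 64697084 to 64922296), whose enzyme needs more calcium than that of Adcy1, had 25.2 and 28.7 CPM in control and 16.6 and 19.7 CPM in surgery. The counts behind these values were 474 and 532 in control and 320 and 354 in surgery, so the groups did not overlap. The mean of the controls was 26.9 ± 2.54 CPM (SD, n = 2) and that of the surgery group 18.2 ± 2.18 CPM (SD, n = 2), a change of -32.6% (log2 fold change -0.57, SE 0.16, interval -0.92 to -0.22). Its p was 0.0042 before and 0.373 after adjustment with edgeR, which placed it at rank 194 of the 17236 genes. Without surgery replicate 2 the log2 fold change was -0.70 and without surgery replicate 1 it was -0.45, and either fit left 1 surgery library. Among alternatives on all libraries the lowest adjusted p was 0.0625, from edgeR without a count filter. The highest was 0.855, from edgeR on counts summed over its transcripts, where the log2 fold change was -0.44 (unadjusted p = 0.0632). Whether the fold changes of Adcy1 and Adcy8 differ was not tested.

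Creb1 (ENSMUSG00000025958, chromosome 1, 64532645 to 64604548), on which both kinase pathways converge, was measured at 55.4 and 57.4 CPM in control and 63.8 and 58.9 CPM in surgery. Both surgery libraries lay above both controls, by a margin smaller than the gap between the surgery libraries. The log2 fold change was 0.12 (SE 0.11, interval -0.13 to 0.37, edgeR adjusted p = 0.753). Creb1 had the lowest GC content of the members, at 39.6%, and with an offset for GC content its log2 fold change was -0.059. Counts summed over its transcripts gave -1.77 (edgeR unadjusted p = 0.192).

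Neurogranin RNA was lower in both surgery libraries, mainly in replicate 1. Nrgn (ENSMUSG00000053310, chromosome 9, 37544492 to 37552904) had 1038 and 1073 CPM in control and 638 and 914 CPM in surgery. The controls averaged 1056 ± 25.2 CPM (SD, n = 2) and the surgery libraries 776 ± 195 CPM (SD, n = 2), so the spread in surgery exceeded that in control and the groups did not overlap. This is a change of -26.5% (log2 fold change -0.44, SE 0.19, interval -0.85 to -0.034), with a p of 0.0364 before and 0.475 after adjustment with edgeR and rank 1319. Without surgery replicate 1 the log2 fold change was -0.20 (edgeR unadjusted p = 0.378), and without surgery replicate 2 it was -0.73 (edgeR adjusted p = 0.0672, in a range of 0.0672 to 0.998 over 15 alternatives). Nrgn is rich in GC, at 58.6%. With the GC offset its log2 fold change was -0.25, and it no longer passed the unadjusted threshold (edgeR unadjusted p = 0.101). That of Adcy8, with a GC content of 50.8%, was -0.55 (edgeR unadjusted p = 0.00466, adjusted p = 0.659). Over 10992 genes, which are not independent, the log2 fold change ran against GC content with a Spearman correlation of -0.60. The part of GC content in the values of Nrgn beyond this offset was not tested.

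The phosphatase and the inhibitor were compared last among the members. Ppp3ca (ENSMUSG00000028161, chromosome 3, 136670124 to 136937727) encodes the catalytic alpha subunit of calcineurin. It stood at 1998 and 1637 CPM in control and 2379 and 1939 CPM in surgery, where surgery replicate 2 lay between the controls. The log2 fold change was 0.25 (SE 0.19, interval -0.18 to 0.68, edgeR adjusted p = 0.687), from 0.10 without surgery replicate 1 to 0.40 without control replicate 1. Ppp1r1b (ENSMUSG00000061718, chromosome 11, 98348404 to 98357796) encodes the inhibitor of protein phosphatase 1 that is abundant in medium spiny neurons of the striatum. It had 31.3 and 59.8 CPM in control and 33.5 and 43.8 CPM in surgery, so both surgery libraries lay between the controls. The log2 fold change of -0.24 (SE 0.25, interval -0.79 to 0.31, edgeR adjusted p = 0.781) became 0.31 without control replicate 2. The summed level of all 7 striatal markers ranged from 33.0 to 38.6 CPM in control and from 32.1 to 37.8 CPM in surgery, none was at 0 in any library, and the part of such tissue in Ppp1r1b was not tested. The opposite-strand gene 1700003D09Rik covers 15.7% of the exon bases of Ppp1r1b.

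**Figure D2:**
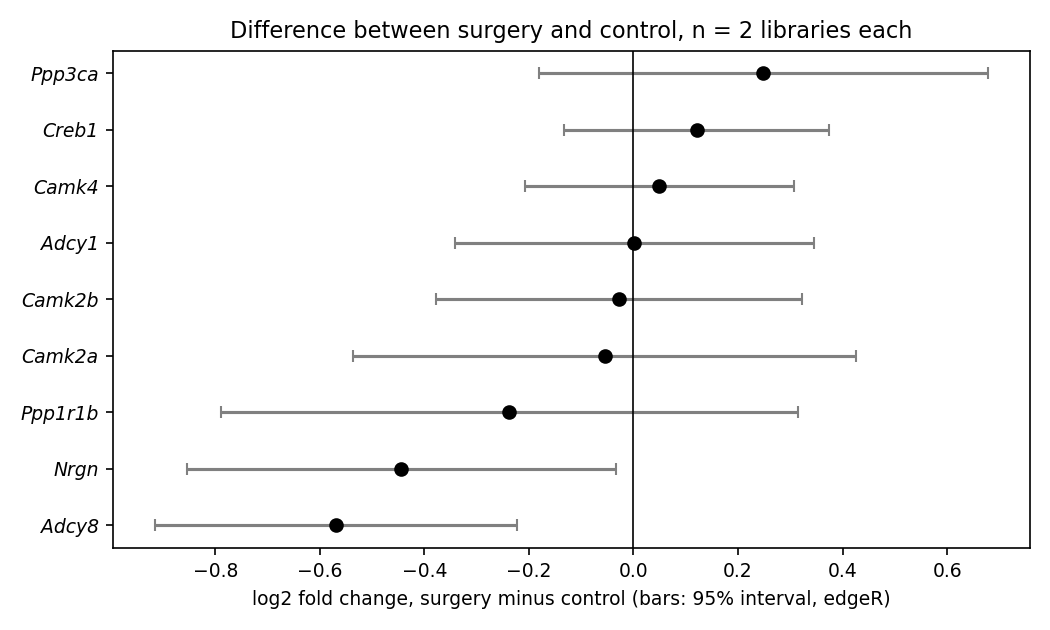
Log2 fold change of each member, surgery minus control, from edgeR (points) with its 95% interval (bars, not adjusted for the number of genes), 2 libraries per group. The intervals of Adcy8 (-0.92 to -0.22) and Nrgn (-0.85 to -0.034) lie below 0 and the other 7 span 0.

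Markers of excitatory neurons, the cells in which most of these genes are expressed, were present in every library. Their 5 genes summed to 3481 and 3872 CPM in control and to 3649 and 3732 CPM in surgery. The 4 markers of CA1 neurons summed to 603 and 676 CPM in control and 587 and 593 CPM in surgery, and the 5 of dentate granule cells to 374 and 426 CPM in control and 465 and 473 CPM in surgery. The surgery libraries were thus outside the control range for both sums, below it for CA1 and above it for the dentate gyrus. Of single genes, 22.3% lay lower and 20.3% higher in both surgery libraries. Of the CA1 markers 3 had a negative log2 fold change, from -0.081 for Wfs1 to -0.57 for Pou3f1, and Mpped1 was at 0.090. Of the dentate markers 1, C1ql2, was negative, at -0.30. Control replicate 1 stood apart in the 5 markers of the choroid plexus, which summed to 50.4 CPM there, with Kcnj13 at 0, and to 3475 to 4508 CPM in the other 3 libraries. Surgery replicate 2 stood apart in the 5 markers of oligodendrocytes, at 3244 CPM against 4527 to 4650 CPM. The part of these differences in the values of Adcy8 and Nrgn was not tested. Without control replicate 1 the log2 fold change was -0.66 for Adcy8 and -0.47 for Nrgn.

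Of 6314 genes with a mean log2 CPM of at least 5, those whose pattern over the 4 libraries was most like that of Adcy8 were Nefm, Midn and Snrpd2. Likeness was measured as the root mean square difference of log2 CPM centred on each gene's mean. Nefm, a neurofilament subunit, differed from Adcy8 by 0.025, with 172 and 188 CPM in control and 114 and 135 CPM in surgery. For Nrgn the nearest of 6313 genes were Cck, Pdxp and Tmem151b. Cck, the neuropeptide cholecystokinin, differed from it by 0.012, with 269 and 273 CPM in control and 165 and 232 CPM in surgery. These genes share the libraries, and hence their depth and composition, with the members.

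The other genes of the pathway were taken from 8 lists with 77 genes, all of which passed the filter. With edgeR 0 of the 77 passed the adjusted threshold, and the smallest adjusted p was 0.340. At an unadjusted p under 0.05 10 were lower in surgery and 1 was higher, where 5.63% and 4.33% of all tested genes were, and the median log2 fold change of the 77 was -0.031. DESeq2 called 1 of the 77, Egr1, where 1.03% of all genes with a DESeq2 adjusted p were called.

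Among 9 genes of calmodulin and its binding proteins 2 were lower at an unadjusted p under 0.05 and 0 were higher, against 5.63% and 4.33% of all genes, with a median log2 fold change of -0.13. Camk2n2, an inhibitor of CaMKII, had 73.6 and 75.9 CPM in control and 32.5 and 57.9 CPM in surgery (log2 fold change -0.73, SE 0.21, edgeR adjusted p = 0.377). As with Nrgn, surgery replicate 1 was the lower library, and without it the log2 fold change of Camk2n2 was -0.36. Without surgery replicate 2 it was -1.20, and either fit left 1 surgery library. Among alternatives on all libraries its adjusted p ran from 2.97e-05 (edgeR without a count filter, where 395 genes passed) to 0.855 (edgeR on counts summed over transcripts). With the GC offset Camk2n2, whose GC content is 63.9%, was at -0.41. Pcp4, a small protein with an IQ motif like that of neurogranin, had 5.94 and 6.27 CPM in control and 3.59 and 4.29 CPM in surgery (-0.63, SE 0.24, adjusted p = 0.456). Igsf5, on the same strand, covers 23.7% of the exon bases of Pcp4, and from counts summed over its transcripts the log2 fold change was -0.030, so its value is uncertain. Camkv, a kinase-like protein of synapses, had a log2 fold change of -0.29 (unadjusted p = 0.0734).

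Of 8 other calmodulin-dependent kinases 1 was lower at the unadjusted threshold, as 5.63% of all genes were. It was Camkk2, an upstream activator of CaMKIV, with 163 and 156 CPM in control and 129 and 138 CPM in surgery (-0.26, SE 0.11, adjusted p = 0.484). Camk2g, the gamma subunit of CaMKII, was at -0.22 and Pnck, a kinase of the CaMKI family, at -0.19. The list's median was -0.051.

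In the list of 15 other cyclases, G-protein subunits and phosphodiesterases 2 were lower at the unadjusted threshold, against 5.63% of all genes, and the median was -0.033. Gnas, the stimulatory G-protein subunit, had 101 and 138 CPM in control and 32.5 and 73.2 CPM in surgery (-1.18, SE 0.29, adjusted p = 0.340). Exons of other genes, Gm20721 and the antisense Nespas among them, cover 21.96% of its exon bases, and from counts summed over its transcripts the log2 fold change was 0.13, so its value is uncertain. Without surgery replicate 1 or 2 Gnas was at -0.70 or -1.88, and either fit left 1 surgery library. Pde2a, a phosphodiesterase stimulated by cyclic GMP, had 1.33 and 2.76 CPM in control and 0.57 and 0.56 CPM in surgery (-1.84, SE 0.49, adjusted p = 0.368). Gm45837, on the same strand, covers 64.3% of its exon bases, and from counts summed over its transcripts the log2 fold change was -0.19, so its value is uncertain as well. Gnal, the G-protein subunit abundant in striatum, was at 0.26 (unadjusted p = 0.0606).

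Downstream, 0 of 7 genes of protein kinase A and 0 of 7 partners of CREB reached an unadjusted p under 0.05. Of all genes 5.63% reached it lower in surgery and 4.33% higher. The kinase subunits Prkaca, Prkacb and Prkar1b had log2 fold changes of -0.22, 0.19 and -0.13, and the CREB coactivators Crtc3 and Crtc2 and the CREB relative Crem had -0.31, -0.23 and 0.23. The medians were 0.030 for protein kinase A and -0.13 for the partners. In the list of 11 phosphatase genes 1 was higher at that threshold, as 4.33% of all genes were. It was Ppp1cb, a catalytic subunit of protein phosphatase 1, with 332 and 304 CPM in control and 474 and 347 CPM in surgery (0.37, SE 0.16, adjusted p = 0.479). Leaving out surgery replicate 1 gave 0.13 for Ppp1cb, and leaving out surgery replicate 2 gave 0.58, each with 1 surgery library left. With the GC offset it was 0.20, and Gm43312, on the same strand, covers 17.5% of its exon bases. Ppp1ca and Ppp1r1a, another subunit and another inhibitor of that phosphatase, were at -0.24 and -0.26. The 10 genes of protein kinase C and the ERK pathway had 0 below the unadjusted threshold, against the same shares of all genes. Their median was 0.030, with Mapk3 at -0.20, Rps6ka3 at 0.16 and Braf at 0.12. Rps6ka3 ran from 0.0013 to 5.36 over 15 alternatives, and from 0.097 to 0.23 over those that left out 1 library, so its value is uncertain.

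The list of 10 activity-dependent targets of CREB lay lowest, with a median log2 fold change of -0.39, 9 negative values and 1 positive. The unadjusted threshold was passed by 5 of them, all lower in surgery as 5.63% of all genes were, and these were Egr1, Junb, Fosb, Nr4a1 and Arc. Both surgery libraries lay below both controls for 6 of the 10, as for 22.3% of all genes. Egr1, an immediate-early transcription factor, had 217 and 231 CPM in control and 125 and 168 CPM in surgery (-0.61, SE 0.14, edgeR adjusted p = 0.340, DESeq2 adjusted p = 0.0156). Junb stood at 97.8 and 111 CPM in control and 36.4 and 70.4 CPM in surgery (-0.97, SE 0.23, edgeR adjusted p = 0.340). For Fosb the values were 21.3 and 25.7 CPM in control and 10.3 and 15.9 CPM in surgery (-0.84, SE 0.21, edgeR adjusted p = 0.340). In each of these genes surgery replicate 1 was the lowest library, and both surgery libraries lay below both controls. Without surgery replicate 1 Egr1 was at -0.41, Junb at -0.56 and Fosb at -0.56. Without surgery replicate 2 they were at -0.84, -1.52 and -1.18. Either fit left 1 surgery library. Bdnf, the neurotrophin, was the positive member, at 0.041. Egr1, Junb and Fosb are rich in GC, at 57.3%, 62.6% and 56.0%. With the GC offset their log2 fold changes were -0.45, -0.68 and -0.71. Relative to each gene's mean, levels correlated with GC content (Spearman, 10992 genes) at 0.25 and 0.59 in control and -0.64 and -0.057 in surgery. The offset was run for no other gene of this list, and the part of GC content in the list's values was not tested. The list was chosen with earlier results of these data known, so its direction is a description.

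**Figure D3:**
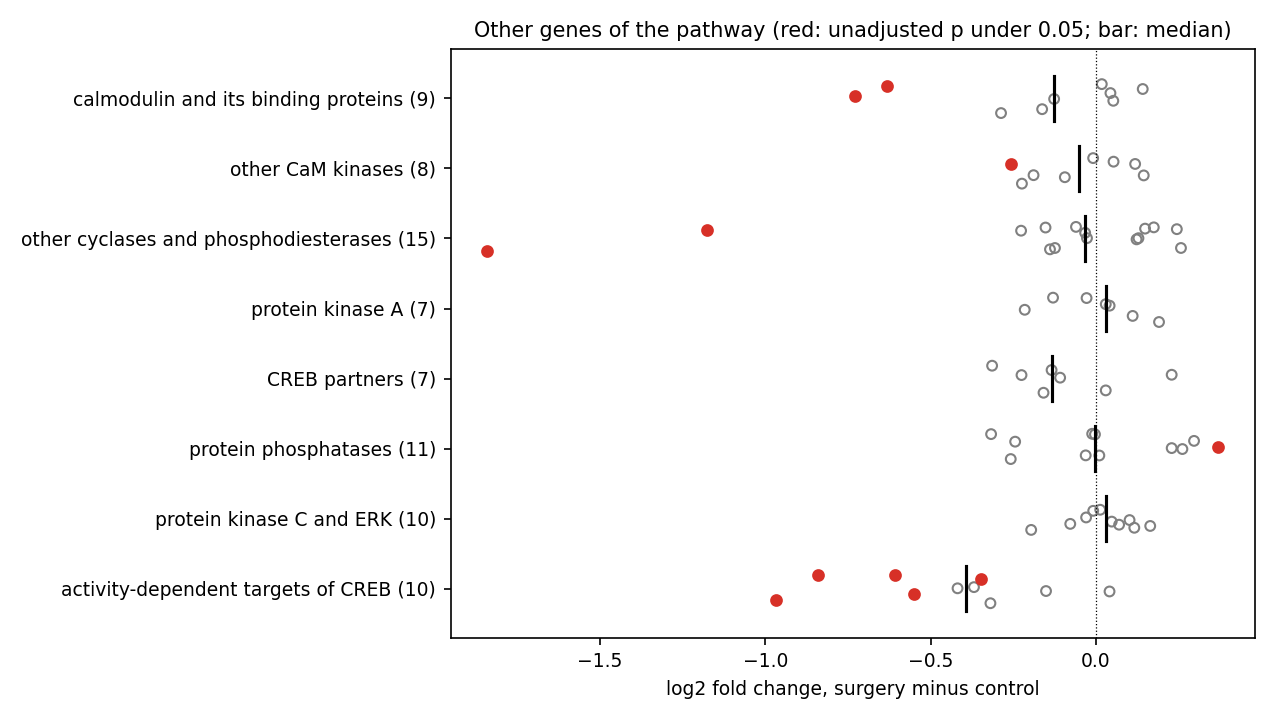
Log2 fold change, surgery minus control, of the 77 other genes of the pathway in their 8 lists (each circle 1 gene, filled red at an edgeR unadjusted p under 0.05, black bar the median of the list, list size in brackets). The targets of CREB have the lowest median, -0.39, and the other medians lie between -0.13 and 0.030.

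A search of promoters for the site CREB binds covered the 4 members with a RefSeq window on GRCm38.p6, Adcy1, Camk2b, Creb1 and Nrgn. Each window runs from 250 bases before to 50 after the start of the gene. The full site TGACGTCA was in 0 of the 4 and in 1.79% of 32851 windows of all genes, and its shorter form TGACG, on either strand and overlapping the full site, was in 0 of the 4 and in 20.8% of all windows.

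Estimated transcript counts gave a second readout of the same libraries. The 9 genes had 51 annotated transcripts, of which 37 passed the filter. At an adjusted p under 0.05 0 of these 37 passed with edgeR, as did 0% of the 65665 tested transcripts, and 0 had an unadjusted p under 0.05, which 6% of all transcripts had. The smallest p was 0.0569, for Camk4-201 (log2 fold change 1.58, SE 0.56). DESeq2, run on the same 65665 transcripts, called 2593 of them. Of the 37 of the members it called 1, Camk2b-204 (log2 fold change -6.71, SE 2.10, adjusted p = 0.0373). Of this transcript 26593 estimated counts stood in control replicate 1 and 171, 181 and 69 in the other libraries, so the call rests on 1 library.

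Transcript estimates summed over a gene did not follow the gene counts equally well. Over whole libraries the transcript table held 3.85 to 3.91 times the gene counts. For Nrgn the ratio was 3.85 to 3.98 and for Camk2a 3.01 to 3.06, steady over the 4 libraries, and Adcy8 (3.36 to 3.997), Ppp3ca (1.77 to 2.12) and Ppp1r1b (3.77 to 4.91) varied little. For Adcy1 it was 0.307 and 3.95 in control and 0.0543 and 3.94 in surgery, while its gene count stayed between 20432 and 21833. Camk2b gave 2.20 and 0.485 in control and 0.540 and 0.257 in surgery. The ratios of Creb1 were 0.240 and 2.18 in control and 0.418 and 0.237 in surgery. Camk4 gave 0.820 and 0.807 in control and 3.20 and 1.35 in surgery, with both surgery libraries higher although its gene counts overlapped. Of the 7 members with a mean of at least 1000 gene counts, the highest ratio exceeded the lowest by more than 2 times in 4, as it did in 24.0% of 4375 genes with such counts. Transcript models assembled without a gene symbol held 19.6% to 20.6% of the transcript counts. Whether reads of the 4 genes were assigned to these models was not tested.

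**Figure D4:**
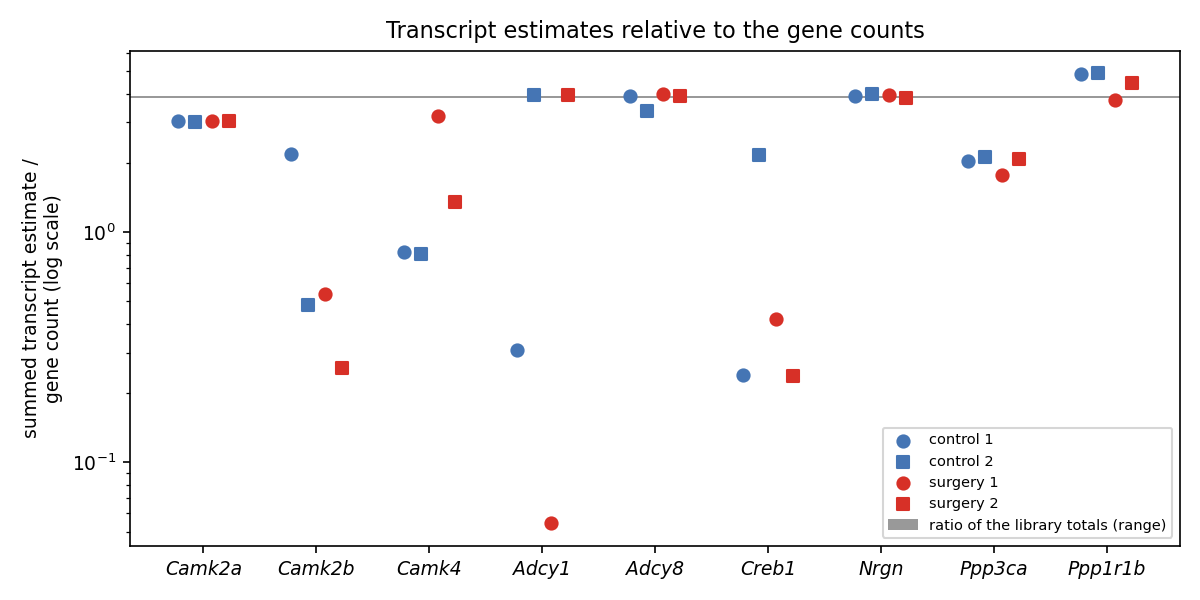
Summed transcript estimate divided by the gene count, on a log axis, for each member in the 4 libraries (blue, control; red, surgery; circle, replicate 1; square, replicate 2), with the range of the library totals as a grey line at 3.85 to 3.91. Nrgn and Camk2a are steady, while Adcy1 ranges from 0.0543 to 3.95.

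Within the members, the shares of transcripts were read as a description. Single coding transcripts held nearly all estimated counts of Camk2a (Camk2a-203, 99.26% to 99.56%), Camk4 (Camk4-201, 100% in all 4) and Nrgn (Nrgn-201, 99.66% to 99.82%). For Nrgn-201 the controls had 76396 and 78932 estimated counts and the surgery libraries 48363 and 62950, the same order as the gene counts (log2 fold change -0.45, SE 0.18, edgeR adjusted p = 0.921). Ppp3ca-202 held 99.4% and 99.5% in control and 99.4% and 97.1% in surgery. Adcy8 was divided between 2 coding transcripts, Adcy8-201 at 55.1% and 47.7% in control and 53.6% and 50.5% in surgery, and Adcy8-202 at 40.1% and 44.0% in control and 42.8% and 44.1% in surgery. Both had fewer estimated counts in each surgery library than in each control, and their log2 fold changes were -0.41 (SE 0.32) and -0.37 (SE 0.33), so the shares stayed level while both estimates were lower. Of Ppp1r1b, the coding Ppp1r1b-201 held 64.5% and 63.4% in control and 86.5% and 69.5% in surgery. Ppp1r1b-202, which retains an intron, held 30.9% and 34.6% in control and 1.44% and 25.2% in surgery, so that surgery replicate 1 alone stood far from the rest. Ppp1r1b-206 had a small share of 1.496% and 1.42% in control and 11.1% and 3.75% in surgery (log2 fold change 1.74, SE 0.65, edgeR adjusted p = 0.882).

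Shares also varied between libraries in Camk2b, Creb1 and Adcy1. Camk2b-215, a transcript without a coding sequence, held 7.88% of Camk2b in control replicate 1 but 82.8% in control replicate 2, and 75.2% and 63.7% in surgery. The coding Camk2b-209 and Camk2b-204 took 34.9% and 51.3% in control replicate 1, and at most 15.5% and 1.52% elsewhere. Creb1-202 held 75.7% and 92.9% of Creb1 in control and 48.7% and 31.5% in surgery, and Creb1-209 held 8.76% and 5.67% in control and 34.1% and 55.0% in surgery. Both shares were apart between the groups, and how many transcripts of other genes had shares apart was not counted. The transcript estimates of Creb1 summed to 251 and 2310 in control and 513 and 251 in surgery. The estimates behind the shares were 190 and 2147 counts of Creb1-202 in control and 250 and 79 in surgery, which overlapped. Those of Creb1-209 were 22 and 131 in control and 175 and 138 in surgery (log2 fold change 1.04, SE 1.02, edgeR unadjusted p = 0.372). Creb1-210, a target of nonsense-mediated decay, was estimated at 11 counts in control replicate 1, 72 in surgery replicate 1 and 0 in the other libraries. Adcy1-201 held at least 98.2% of Adcy1 in every library but surgery replicate 1, where it held 69.5% of a sum of 1161 and Adcy1-202 30.5%.

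**Figure D5:**
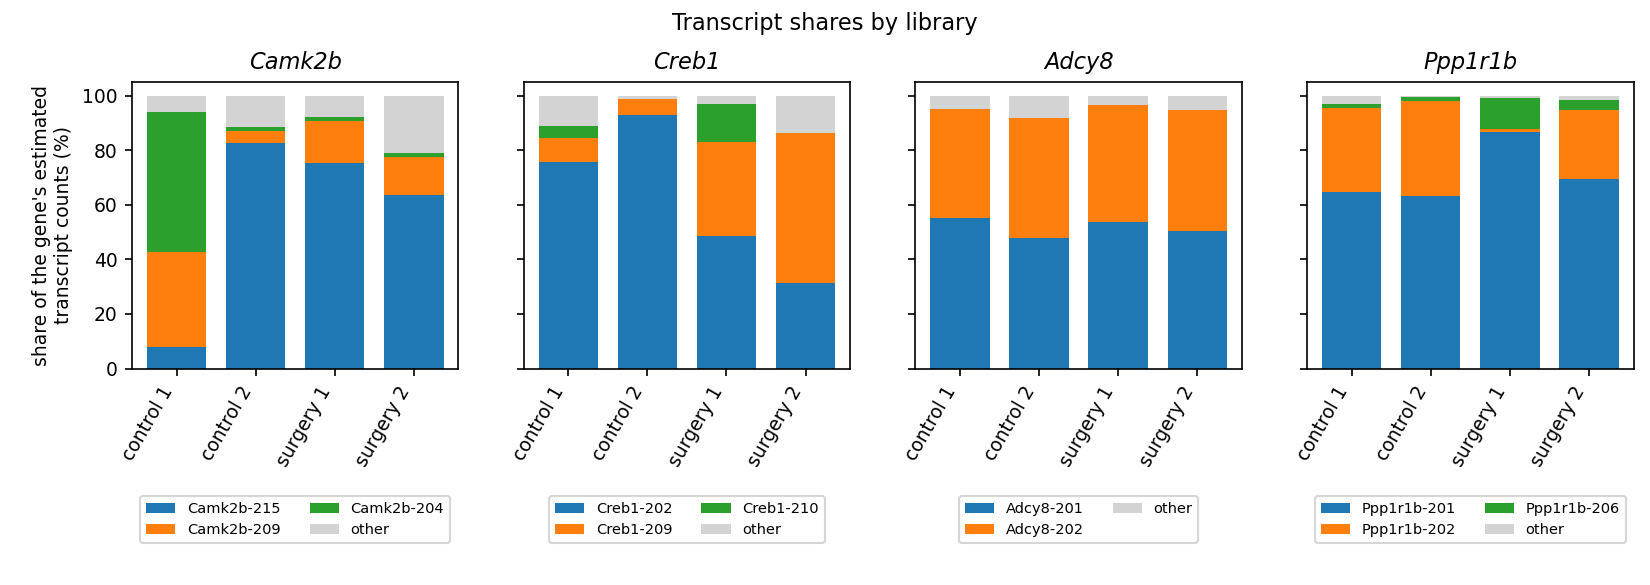
Share of each named transcript in the estimated counts of its gene, in percent, stacked for each library, for Camk2b, Creb1, Adcy8 and Ppp1r1b (grey, all other transcripts). The shares of Adcy8 are level, those of Camk2b set control replicate 1 apart, and Ppp1r1b-202 is at 1.44% in surgery replicate 1.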

How the data were processed

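The data were 2 control and 2 surgery libraries of bulk hippocampal RNA. Alignment by the authors was to mm10 with HISAT2, and gene counts came from HTSeq, stated as version 5.4.2. Sources used here name no annotation release, strand setting or tool for transcripts. For genes the authors deposited raw counts and FPKM, and for transcripts estimated counts (whole numbers in the file) and FPKM. FPKM served for levels between genes, for shares and in alternatives. Gene counts totalled 18002695 to 19318085 per library and transcript counts 69394548 to 75437127. By Ensembl ID 31010 of 31060 genes matched GENCODE vM21, used for overlaps, GC content, transcript names and coding sequence.

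The quasi-likelihood test of edgeR 4.0.16 in R 4.3.3 was applied to counts (two-sided, no covariate), after TMM scaling and filterByExpr (minimum count 10, minimum total 15), and p-values were adjusted by Benjamini-Hochberg over all tested features. Alternatives were DESeq2 1.42.0, RLE factors, no filter, at least 10 counts in each library, limma-voom (limma 3.58.1), a replicate block, log2(FPKM + 1) and log2(FPKM + 0.1) with limma, an FPKM minimum of 1, counts summed from transcripts, an offset for GC content (span 0.3, log2 CPM above 3) and leaving out each library. The steps were tested on simulated data.

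Named were all 9 members, transcripts with at least 10% of their gene in any library, up to 3 genes per list by smallest p, and for the 2 members with the smallest p the 3 genes of nearest pattern. Values were known when Nr4a1, Arc, Bdnf and Kcnj13 were added. The members and lists were chosen with earlier results of these data known.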

Additional observations from a re-analysis of the deposited data

How the results depend on the processing

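At the adjusted threshold 0 genes passed with edgeR, and 7 of 15 alternatives gave 0 as well. DESeq2 called 78 genes, edgeR without a count filter 395 and with at least 10 counts in each library 1, and leaving out 1 library gave 16 to 724. Of the members 0 passed in 14 of 15 alternatives, and leaving out 1 library gave 0 to 1, the call being Adcy8 without surgery replicate 2. The lone library of a group was then assumed to vary like the other group. Of the 65665 transcripts DESeq2 called 2593, and of the 37 of the members 1, against 0 and 0 with edgeR. Replicate numbers are shared by the groups, but nothing pairs the samples, and same-numbered libraries deviated together with r = 0.21 over 11001 genes. The opposite numbering gives -0.21 by construction, the genes are not independent, and the part of GC content in this value was not tested. With the replicate block 39 genes passed, 0 of them members, and Gnas (-1.26) and Junb (-1.03) passed.

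Adcy8, Nrgn and Ppp3ca kept their sign in all 15 alternatives, with log2 fold changes of -0.70 to -0.43, -0.73 to -0.20 and 0.10 to 0.40. In 17 alternative values of members the sign changed, and the cause was not tested. With the GC offset these were Camk2a (0.012), Camk2b (0.056), Creb1 (-0.059) and Ppp1r1b (0.032). Summed from transcripts they were Adcy1 (-0.030) and Creb1 (-1.77), while Camk2b (-1.79) and Camk4 (1.55) kept their sign. From log2 FPKM Adcy1 was at -0.015 with each pseudocount and filter. Leaving out 1 library turned Camk2a (-0.21 to 0.11), Camk2b (-0.064 to 0.012), Camk4 (-0.024 to 0.13), Adcy1 (-0.027 to 0.037) and Ppp1r1b (-0.63 to 0.31). The reversals without surgery replicate 1 were Camk2a (0.089), Camk2b (0.012) and Camk4 (-0.0011), without control replicate 1 Camk2a (0.11), without control replicate 2 Camk4 (-0.024), Adcy1 (-0.025) and Ppp1r1b (0.31), and without surgery replicate 2 Adcy1 (-0.027). Of the pathway genes that are no members, alternatives were run only for the up to 3 per list with the smallest p. Among these Gnas (0.13) and Braf (-0.70) turned when summed from transcripts, Braf (-0.0096) and Prkar1b (0.0030) with the GC offset, and Braf without control replicate 2 (-0.024, in a range of -0.024 to 0.28 over the 4 omissions). They passed the adjusted threshold in 17 alternative values, with the same sign. With the GC offset Camkv (-0.10), Pnck (-0.059), Mapk3 (-0.028) and Rps6ka3 (0.0013) kept their sign but came closer to 0. From transcript FPKM the difference in share was -0.13 percentage points for Nrgn-201 and -2.53 for Ppp3ca-202. With 2 libraries per group the 95% intervals of the members, not adjusted for the number of genes, were 0.51 to 1.10 wide on the log2 scale. Differences within their reach of 0 were not detectable, and larger ones could be missed too. The intervals of Adcy8 and Nrgn lay below 0, and with edgeR on all libraries neither gene passed the adjusted threshold.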
